A study of Mus musculus with 2 samples.

Results

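Gene deserts held 2394 CTCF peaks in newborn mouse intestine, out of 73465 peaks in the optimal list. A peak was taken when its summit, the base of highest enrichment, lay on chromosomes 1 to 19, outside every protein-coding gene and more than 200 kb from the nearest transcription start site (TSS) of a protein-coding gene. The summit also had to fall on a base not masked as repeat. On chromosomes 1 to 19 the list held 71756 peaks, of which 56184 had an unmasked summit, so desert peaks were 4.26% of those. Beyond membership of the optimal list, which had been filtered for reproducible peaks, no peak measurement entered the choice. The annotation was GENCODE M21 on mm10.

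The study is a chromatin immunoprecipitation with sequencing (ChIP-seq) of CTCF in intestine of B6NCrl mice at birth (0 days), with 1 group of 2 biological replicates and no second genotype, treatment or stage. The tissue was pulverized and pooled over several dissections, and sex was not recorded. Both libraries carry the same biosample and donor labels, so the agreement between them measures the spread between libraries and may be technical. The tissue holds epithelium, muscle, nerve and blood cells, and a weak peak cannot be told apart from a peak present in few cells. CTCF peaks give no expression of marker genes, so the labelled tissue could not be checked with them.

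With its zinc fingers CTCF reads a long, directional DNA motif, and it stops cohesin as cohesin extrudes loops of chromatin. Loops form mostly between sites whose motifs face each other, and many sites are blocked when a CpG within the motif is methylated. Gene deserts are long stretches without protein-coding genes. Those beside developmental regulators often carry distant enhancers, and CTCF sites in them set which promoter an enhancer can reach; others are AT-rich, late replicating and lie at the nuclear lamina.

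The sequences under 9 of the 10 strongest desert peaks show what CTCF meets there. Each is the best motif match within 100 bases of the summit, read 5′ to 3′ on the motif's strand, with the 19 motif bases in capitals and 10 bases on each side. They are named by the genes that flank the desert, with mm10 coordinates and the peak signal, the enrichment value deposited for each peak.

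Caln1 to Galnt17, signal 688, chr5:130853518-130853556, minus strand: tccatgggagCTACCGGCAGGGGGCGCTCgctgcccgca
Npvf to Nfe2l3, signal 644, chr6:50937251-50937289, minus strand: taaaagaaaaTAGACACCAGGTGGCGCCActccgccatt
Sox9 to Slc39a11, signal 607, chr11:113165288-113165326, minus strand: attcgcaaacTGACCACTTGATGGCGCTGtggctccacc
A1bg to Myc, signal 546, chr15:61157687-61157725, plus strand: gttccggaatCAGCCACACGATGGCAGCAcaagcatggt
Pfn2 to Tsc22d2, signal 530, chr3:58163917-58163955, plus strand: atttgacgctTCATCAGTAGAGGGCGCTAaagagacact
St3gal1 to Zfat, signal 528, chr15:67434481-67434519, minus strand: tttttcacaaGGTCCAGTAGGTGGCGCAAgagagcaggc
Fbxl7 to Ank, signal 512, chr15:27234929-27234967, minus strand: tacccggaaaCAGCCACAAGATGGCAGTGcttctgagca
Dusp10 to Hlx, signal 512, chr1:184266262-184266300, plus strand: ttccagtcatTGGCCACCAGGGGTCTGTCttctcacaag
Pfn2 to Tsc22d2, second peak, signal 504, chr3:58122902-58122940, minus strand: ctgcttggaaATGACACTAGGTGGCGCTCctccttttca

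The motif held a CpG in 7 of these 9 sites, and in 6 it lay at motif positions 15 and 16, within the GGCGC that closes the core. These strongest sites were not typical: over all called desert motifs, 29.2% held a CpG and 21.3% held it at positions 15 and 16. The first of the 9 sites, between Caln1, which encodes a neuronal calcium-binding protein, and Galnt17, which encodes a glycosyltransferase, had a second match. This desert by the rule was a gap of only 24669 bases between gene bodies, although the peak lay 404.7 kb from the nearest TSS. The 241 bases around the summit of that peak are shown because both matches, in capitals, lie on the minus strand and point the same way.

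Caln1 to Galnt17, summit region, chr5:130853423-130853663, plus strand: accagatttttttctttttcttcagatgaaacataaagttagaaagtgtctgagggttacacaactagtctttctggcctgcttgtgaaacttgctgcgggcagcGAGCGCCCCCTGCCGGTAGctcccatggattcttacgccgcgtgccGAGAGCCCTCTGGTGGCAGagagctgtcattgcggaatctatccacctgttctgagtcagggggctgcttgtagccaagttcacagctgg

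Remote sites are printed for comparison. The first lies 2124 kb from a TSS, and the next belongs to the desert peak farthest from any other peak. The last is the summit of the peak farthest from a TSS, 61 bases, where no match reached the threshold and no base is in capitals. Remote peaks were not all weak: the second farthest, at 2195 kb and not printed, had a signal of 242, a motif, and 9 CpGs in a window of 60.2% GC.

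Tenm3 to Aga, signal 51.1, chr8:50967531-50967569, plus strand: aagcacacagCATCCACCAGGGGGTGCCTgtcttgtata
Ncam2 to Gm21833, signal 34.2, chr16:82521755-82521793, minus strand: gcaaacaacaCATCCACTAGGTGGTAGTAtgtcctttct
Pcdh20 to Pcdh9, signal 34.7, chr14:91014885-91014945, plus strand: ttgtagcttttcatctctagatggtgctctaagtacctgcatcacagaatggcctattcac

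Peaks stood far apart in deserts. Desert sequence made up 19.3% of all unmasked bases, 307.3 Mb, and held 7.79 peaks per Mb (95% exact Poisson interval 7.48 to 8.11). Intergenic sequence 1 to 200 kb from a TSS, called near intergenic here, held 35.0 peaks per Mb (34.5 to 35.5), or 4.50-fold more. Bodies of protein-coding genes held 34.2 and promoters, within 1 kb of a TSS, 155 peaks per Mb. Intervals here and in what follows cover counting error only.

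The low density was found on each of the 19 chromosomes. Desert density ran from 5.41 peaks per Mb on chromosome 17 to 10.8 on chromosome 9. Near intergenic density ran from 29.1 on chromosome 16 to 52.4 on chromosome 11, so the ranges did not overlap. Called from 1 library alone, with as many of its strongest peaks as the optimal list holds, the ratio of desert to near intergenic density was 0.219 for replicate 1 and 0.221 for replicate 2, against 0.222 for the optimal list.

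Outside genes, density fell steadily with distance from a TSS. It was 59.6 peaks per Mb at 1 to 5 kb, 38.1 at 20 to 50 kb and 17.5 at 100 to 200 kb. Within deserts it fell on, from 11.9 at 200 to 300 kb to 8.96 at 300 to 500 kb, 5.07 at 500 to 1000 kb and 2.63 (2.15 to 3.19) beyond 1000 kb.

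**Figure D1:**
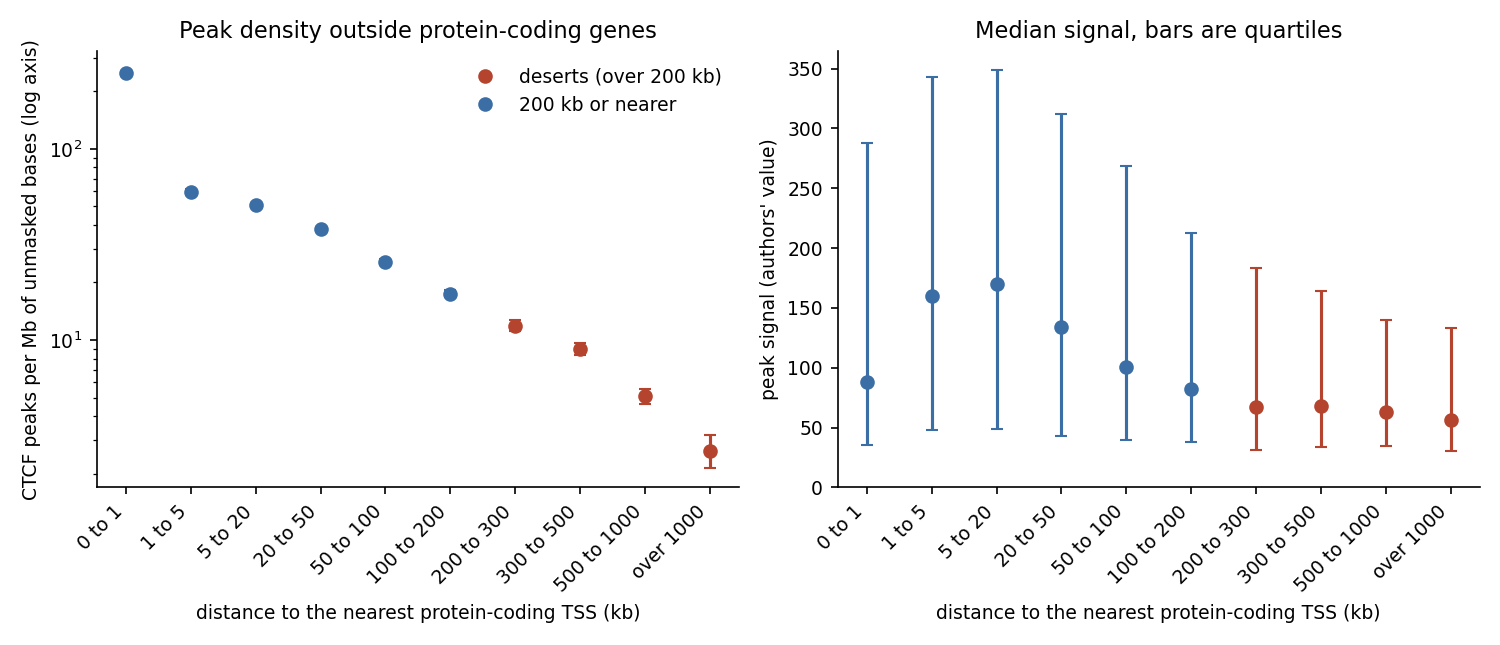
Left, optimal CTCF peaks per Mb of unmasked bases outside protein-coding genes (log axis) by distance to the nearest protein-coding TSS in kb, with 95% exact Poisson intervals; right, median peak signal with quartiles as bars. Density falls from 249 peaks per Mb within 1 kb to 2.63 beyond 1000 kb, and median signal from 170 at 5 to 20 kb to 56.5.

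The 3 members closest to the limit lay beside Bnc2 at 200.3 kb, Map3k1 at 200.5 kb and Rasgrp1 at 200.7 kb, with signals of 110, 81.4 and 26.5. The 3 peaks just short of it lay beside Sp3 and Rab11fip2, both at 199.9 kb, and Ctbp2 at 199.8 kb, with signals of 49.2, 341 and 42.9. At the other end, 563 members lay over 500 kb and 104 over 1000 kb from a TSS, and the farthest at 2544 kb.

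The nearest other optimal summit was a median of 28.7 kb away from a desert peak (quartiles 7.82 and 84.5 kb), against 5.66 kb for near intergenic peaks. No other summit lay within 100 kb of 516 members (21.6%), against 1.64% of near intergenic peaks. The most isolated, on chromosome 16 between Ncam2, which encodes a neural adhesion molecule, and Gm21833, had no other peak within 1191 kb. Its signal was 34.2 and its window was 29.4% GC, with no CpG.

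Desert peaks were weak. Their median signal was 65.4 (quartiles 32.9 and 162), against 132 (43.4 and 316) for near intergenic peaks, 87.3 for gene bodies and 64.3 for promoters. The desert median was the lower of the desert and near intergenic medians on 19 of 19 chromosomes. Per chromosome it ran from 51.1 to 89.6, below the near intergenic range of 106 to 165. The ratio of the medians was 0.495 in the optimal list, 0.503 in replicate 1 and 0.500 in replicate 2, so the difference was far larger than the spread between the libraries.

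Above the median of the list, 75.9, stood 46.2% of desert peaks, against 54.3% of all unmasked peaks. The shortfall was greatest among strong peaks: 114 members (4.76%) reached the strongest 10% of the list, a signal of 381 or more, against 15.7% of near intergenic peaks. Promoter peaks had a similar median, but 10.3% of them reached that level. In desert peaks 55.3% had the commonest width of 310 bases, against 39.0% of near intergenic, 47.7% of gene body and 55.1% of promoter peaks.

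**Figure D2:**
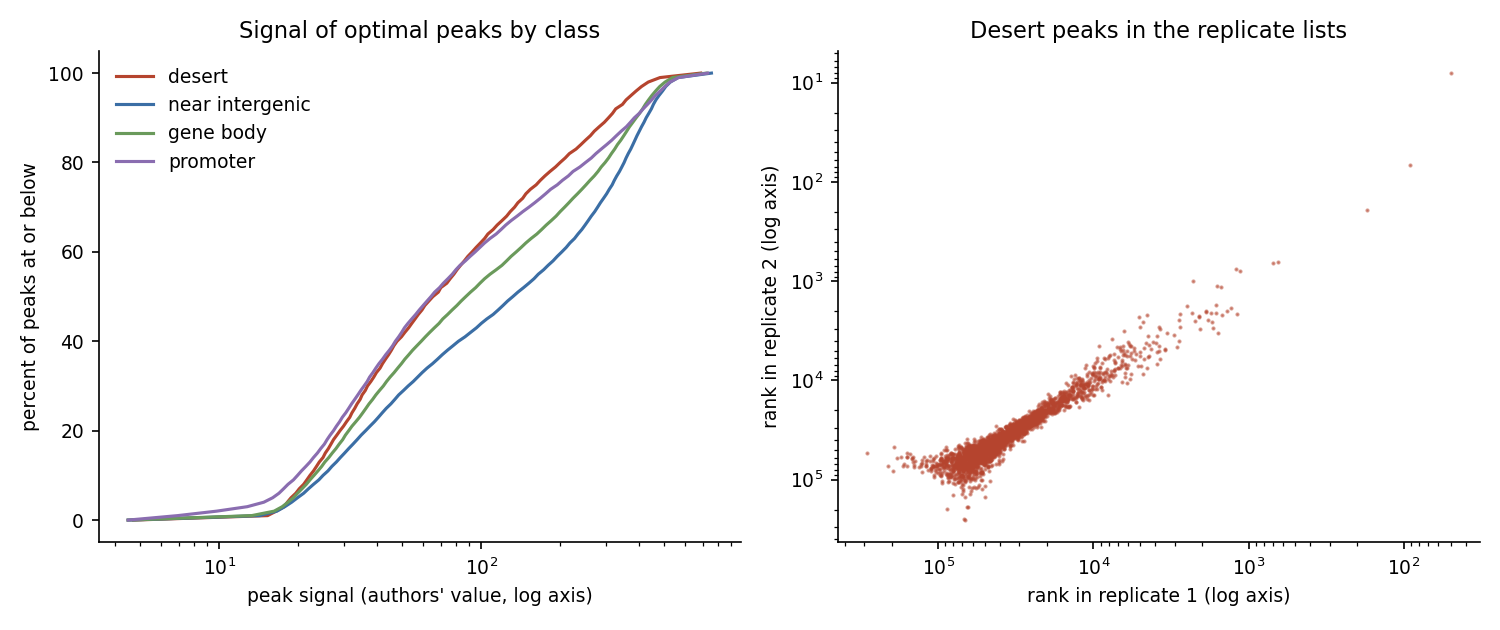
Left, cumulative distributions of peak signal (log axis) of the optimal peaks with an unmasked summit in each class; right, the rank of each desert peak by signal in the separately called lists of the 2 replicates (log axes, strongest to the upper right). Promoter peaks reach lower signals at the weak end, 6.94 against 15.3 in deserts at percentile 1. Desert and promoter curves then draw together towards their medians of 65.4 and 64.3 and part above them. The ranks of desert peaks in the libraries lie along the diagonal.

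Both libraries held nearly all desert peaks. Of the 2394, 2388 (99.7%) overlapped a peak in each replicate list, but each list holds 300000 peaks, so overlap alone says little. Their median rank was 39911.5 in replicate 1 and 39523 in replicate 2, against 26966.5 and 26806 for near intergenic peaks. Among the strongest 73465 peaks of both replicates were 2004 members (83.7%), against 86.0% of all unmasked peaks. The conservative list held 2069 of them (86.4%), against 87.8% of all. The rank correlation of the replicate signals over the members was 0.947 (Spearman), a description over peaks from the same tissue. It was 0.978 for near intergenic peaks. The optimal list had been filtered for reproducible peaks, so agreement between the replicates was in part set by that filter.

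The strongest peaks ranked high in both replicates. Over the 9 printed above, ranks ran from 50 to 2292 in replicate 1 and from 8 to 1132 in replicate 2, of 300000 each. The Caln1 to Galnt17 peak ranked 50 and 8 in replicates 1 and 2, and the Npvf to Nfe2l3 peak, between a neuropeptide gene and a transcription factor gene, 91 and 67. In the desert past Sox9 the strongest peak ranked 174 and 190. The largest difference in rank among the 9 was at the second Pfn2 to Tsc22d2 peak, with 2292 and 1002.

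The weakest members stood beside other peaks. The 3 weakest, with signals of 4.71, 4.76 and 5.56, lay 0.199, 0.212 and 0.207 kb from another optimal summit, were 310 bases wide and had no motif match. The closest pair of members, on chromosome 5 beside Gm26897, had summits 0.199 kb apart, signals of 19.8 and 7.66, and the same rank in each replicate list. A member takes the rank of the strongest replicate peak that overlaps it, so close members can share 1 replicate peak. In all, 4.93% of members lay under 1 kb from another summit, against 11.2% of near intergenic, 9.82% of gene body and 29.3% of promoter peaks.

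A motif was found at desert peaks as often as elsewhere between genes, although they were weak. A match of the trained 19-base CTCF matrix lay within 100 bases of the summit in 1819 members, 76.0% (95% Wilson interval 74.2 to 77.7). On odd-numbered chromosomes, which the matrix had not been trained on, the share was 76.1% (73.6 to 78.5) in deserts, 76.0% (75.2 to 76.8) in near intergenic peaks, 70.8% in gene bodies and 48.2% in promoters, and 67.8% over all unmasked peaks. Windows 1 kb to either side of desert summits held a match in 2.21%. The desert share was the lower on 7 of 19 chromosomes.

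Set beside peaks of like signal, weak desert peaks held the motif more often. All unmasked peaks were divided by signal into 4 bins of equal size. In the weakest bin, up to 36.7, the share was 59.9% (54.7 to 65.0) in deserts and 48.4% (46.3 to 50.5) in near intergenic peaks. In the next bin it was 75.6% (70.6 to 80.0) against 64.7% (62.7 to 66.6). In the third it was 85.4% against 83.5%, and in the strongest 93.9% against 95.2%, with overlapping intervals. Surrounding base composition moved with this: in the weakest bin the median GC of the window was 45.8% in deserts and 50.2% in near intergenic peaks. Its part in the result was not tested.

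Taken over all signals, the matches scored lower in deserts. The median score of called motifs on odd-numbered chromosomes was 15.64 in deserts and 16.45 in near intergenic peaks. Within the same signal bins this did not hold, except in the strongest. From the weakest bin up, the medians were 14.13 against 13.64, 15.20 against 14.68, 16.41 against 16.28 and 17.85 against 18.24. At a stricter threshold, reached by 1% of flanking windows, 40.6% of desert peaks and 46.0% of near intergenic peaks held a match. The plain word CCANNAGNNGGC, searched on both strands and contained in the matrix, was present near 603 desert summits (25.2%), against 28.5% of near intergenic summits and 23.1% of all unmasked peaks. A second match that did not overlap the first was found in 46 desert peaks, 1.92% (1.44 to 2.55), against 2.98% of near intergenic peaks. Members with 2 or more matches had a median signal of 141, those with 1 match 82.6 and those with none 36.1.

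Desert motifs were poor in CpG. A CpG lay in 29.2% (27.1 to 31.3) of called desert motifs, against 39.9% in near intergenic, 34.9% in gene body and 67.8% in promoter motifs. Most of it was the CpG at positions 15 and 16, present in 21.3% of desert and 29.8% of near intergenic motifs. These shares were taken over all signals, where desert matches scored lower, and were not compared at like signal or score. Over the 100 bases on each side of the summit, the median GC was 46.3% in desert and 49.3% in near intergenic peaks, lower on 19 of 19 chromosomes, and 21.1% of desert windows had no CpG at all, against 11.8%. The unmasked desert sequence as a whole was 39.1% GC and near intergenic sequence 43.4%.

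No match was called at 575 members, whose median signal was 36.1, against 83.4 for members with one. A few strong peaks were among them. The 3 strongest are printed as the 61 plus-strand bases centred on the summit, all in lower case because no match reached the threshold; their best scores were 7.58, 9.09 and 9.73 against a threshold of 10.09.

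Camk1g to Plxna2, signal 427, chr1:193699047-193699107, plus strand: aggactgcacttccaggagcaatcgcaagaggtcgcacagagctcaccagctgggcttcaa
Gpr158 to Myo3a, signal 413, chr2:21909756-21909816, plus strand: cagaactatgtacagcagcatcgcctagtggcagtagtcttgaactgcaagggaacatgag
Gpat3 to Nkx6-1, signal 403, chr5:101365534-101365594, plus strand: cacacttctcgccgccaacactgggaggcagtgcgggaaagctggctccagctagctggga

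They lay in the deserts beside Plxna2, a semaphorin receptor, Myo3a, a myosin of sensory cells, and Nkx6-1, a homeobox factor. Their ranks were 4282 and 4877, 4753 and 6019, and 6633 and 5091 in replicates 1 and 2.

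Sequence that matched the motif well was both rarer in deserts and less often under a peak. All matches with a score of 15.35 or more at unmasked bases were located on odd-numbered chromosomes, whether or not a peak was there. Deserts had 942, or 6.29 per Mb, and near intergenic sequence 6481, or 22.1 per Mb. A summit of the optimal list lay within 100 bases of 451 desert matches, 47.9% (44.7 to 51.1), against 72.6% (71.5 to 73.7) of near intergenic matches. The share was lower in deserts on 10 of 10 odd-numbered chromosomes, with ranges of 41.3 to 56.1% and 66.3 to 79.7%. With the strongest peaks of replicate 1 or 2 alone, it was 47.2% and 48.4% in deserts.

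Matches of the same score differed too. At scores of 15.35 to 17 a summit was present at 33.5% of desert and 51.8% of near intergenic matches. At 17 to 19 the shares were 50.7% (44.9 to 56.6) and 76.8% (74.9 to 78.6), and at 19 to 21 they were 74.4% and 90.3%. Only at 21 or more did the intervals overlap, 89.8% (79.5 to 95.3) of 59 desert matches and 93.5% (91.8 to 94.9) of 928.

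**Figure D3:**
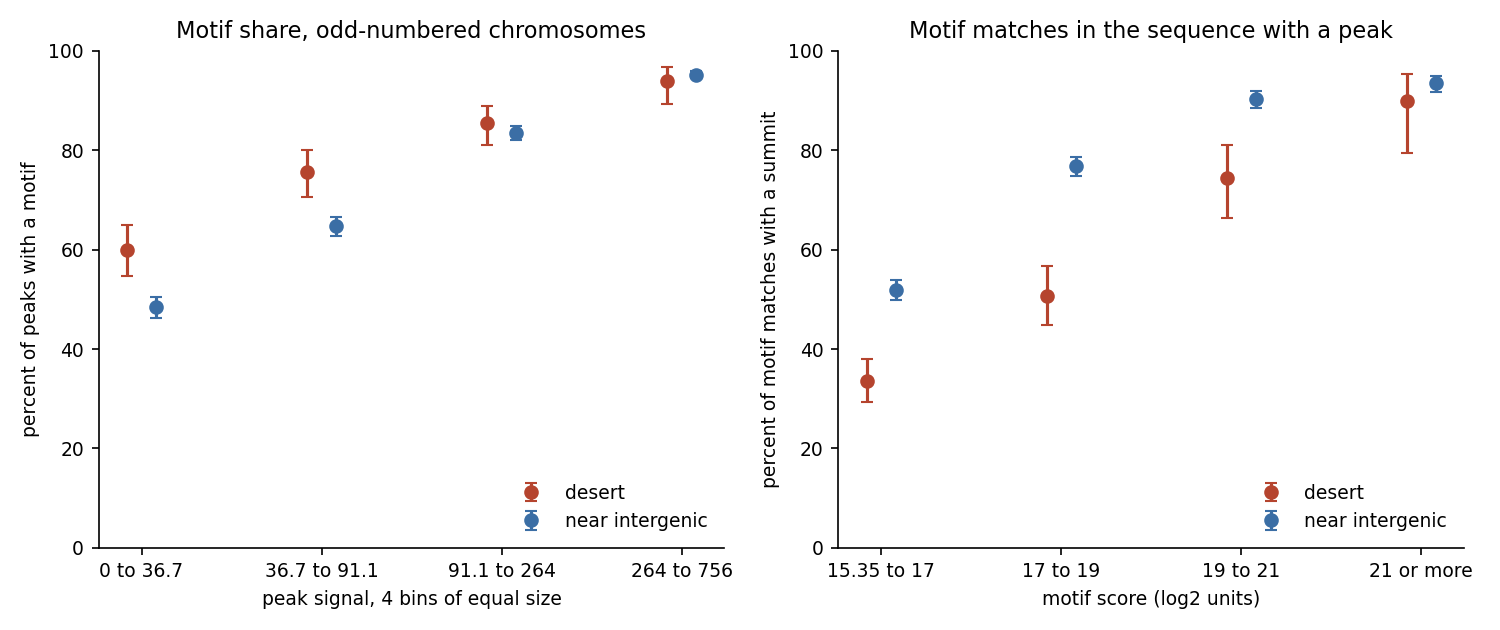
Left, percent of peaks on odd-numbered chromosomes with a motif within 100 bases of the summit, by peak signal in 4 bins; right, percent of motif matches in the sequence of the same chromosomes with an optimal summit within 100 bases, by match score; bars are 95% Wilson intervals. Weak desert peaks hold the motif more often than weak near intergenic peaks (59.9% against 48.4%), while desert matches of score 17 to 19 carry a peak less often (50.7% against 76.8%).

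The surrounding base composition moved with occupancy in both classes. The median GC of the 10 kb around a match was 41.2% at desert matches with a summit and 39.8% at those without, and 45.8% and 44.1% in near intergenic sequence. Where that GC was under 38%, a summit was present at 36.5% (30.6 to 42.9) of 230 desert and 55.4% (48.0 to 62.5) of 177 near intergenic matches. At 38 to 41% the shares were 45.4% and 60.5%, at 41 to 44% they were 52.2% and 65.6%, and from 44% up they were 60.2% and 78.0%. The share was lower in deserts within each of these ranges. Scores differed little in the first, with medians of 16.81 and 16.88, and more in the last, 17.28 and 18.08.

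Matches with a summit also carried the CpG at positions 15 and 16 more often, in deserts 29.7% against 9.78% of those without, and in near intergenic sequence 35.3% against 16.9%. These shares were not compared at like score. C at position 15 (84.4%) and G at position 16 (53.0%) are the commonest bases of the matrix, so this CpG adds to the score, and matches of higher score had a summit more often. Of the 491 desert matches without an optimal summit, 174 (35.4%; 31.3 to 39.8) had a summit in the unthresholded pooled list of both libraries, while 0.611% of positions 5 kb away did. In near intergenic sequence the share was 36.8%, and 3.72% at positions 5 kb away. DNA methylation was not measured here.

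Neighbouring desert motifs lay more often in the same direction. Between consecutive motif peaks of the same desert with unmasked summits, 1256 pairs, 20.3% (18.2 to 22.6) faced each other (convergent), 21.3% faced away (divergent) and 58.4% (55.6 to 61.1) pointed the same way (tandem). Outside deserts the shares were 24.0%, 24.2% and 51.8% (51.3 to 52.3) of 35709 pairs. Along a chromosome convergent and divergent pairs alternate, so both stay close in number.

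The sets differed most in the convergent share of distant pairs. Outside deserts it climbed with distance, from 19.7% under 10 kb to 29.2% at 50 to 200 kb and 38.7% (36.2 to 41.3) over 200 kb. In deserts it was 18.7%, 19.6% (16.2 to 23.6) and 25.1% (20.4 to 30.4). Pairs outside deserts that lie over 200 kb apart can span a desert or other sequence without peaks, so the 2 sets of distant pairs differ in what lies between the sites.

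**Figure D4:**
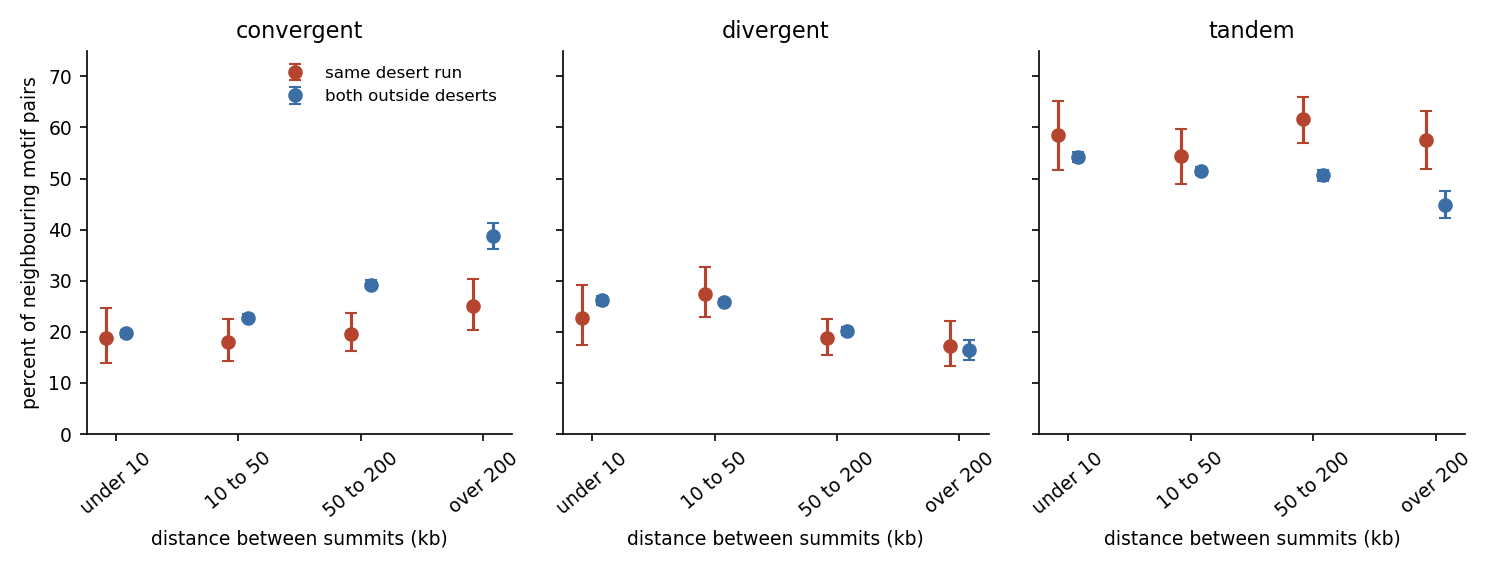
Percent of consecutive motif peaks that are convergent, divergent or tandem, by distance between summits in kb, for pairs within the same desert and for pairs outside deserts; bars are 95% Wilson intervals. The convergent share reaches 38.7% outside deserts and 25.1% within deserts at over 200 kb.

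Desert motifs pointed to the nearest protein-coding TSS in 45.6% (43.3 to 47.9) of 1819 cases, and near intergenic motifs in 46.7% (45.9 to 47.5). Of the outermost motifs of deserts with 2 or more, 48.3% (44.9 to 51.8) pointed inward.

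The deserts formed 845 uninterrupted stretches that meet the positional rule, called runs here, and 605 of them (71.6%) held a member. A run ends 200 kb from a TSS or at the body of a protein-coding gene. Runs with 10 or more members numbered 46 and held 614 members (25.6%), while 153 runs held 1. Of the 155 runs of 1 Mb or more, 9 held none.

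Long runs were sparse, most so at their centre. Density fell from 19.6 peaks per Mb in runs under 100 kb to 9.23 at 500 to 1000 kb and 4.09 (3.67 to 4.54) at 2000 kb or more. In the 155 runs of 1 Mb or more it fell from 8.15 (6.90 to 9.55) in the outer 100 kb to 3.09 (2.71 to 3.51) more than 500 kb from the edge. Median signal did not follow: it was 60.6 at the edge, 78.8 at 300 to 500 kb and 56.6 at the centre. Longer runs, which were sparser, supply more of the innermost bases, and distance from an edge goes with distance from a TSS. Their parts in the fall of density were not separated.

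The longest run, 4.34 Mb on chromosome 14 between Pcdh20 and Pcdh9, which encode protocadherins of neural cell adhesion, held 9 members. Their signals were 158, 36.1, 164, 210, 27.2, 21.0, 249, 34.7 and 161 from Pcdh20 towards Pcdh9. No member lay between the last pair, which stood 2876 and 1126 kb from the start of Pcdh9; that gene is on the minus strand, so the run lies past its 3′ end. The next longest, on chromosome 8 between Tenm3 and Aga, held 13 members, and one on chromosome 14 between Olfm4 and Pcdh17 held 5, with a median signal of 334. Olfm4 encodes a glycoprotein known from intestinal crypts. The longest runs with no member lay between Cox7c and Edil3, 2.37 Mb, Pcdh9 and 4921530L21Rik, 1.59 Mb, and Rgs18 and Brinp3, 1.32 Mb; the first 2 had 1 summit each at a masked base.

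The most crowded run of 500 kb or more lay between Rps24, a ribosomal protein gene, and Zmiz1, a transcriptional co-regulator, on chromosome 14. It held 29 members in 0.454 unmasked Mb, 63.9 per Mb, which is above the near intergenic density of 35.0. Their median signal was 44.5 and the strongest had 388. A run between Npvf and Nfe2l3 held 18 members at 59.1 per Mb, with the second strongest desert peak at 644. Between Mki67, the proliferation marker gene, and Mgmt, a DNA repair gene, lay 19 members. Between Cd83 and Jarid2, a partner of the Polycomb complex, 15 members had a median signal of 35.6 and none above 95.9.

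Some runs are deserts by the rule alone. Short stretches count too: 164 runs under 100 kb, among them that between Caln1 and Galnt17, held 98 members at 19.6 per Mb. Immunoglobulin and T cell receptor gene segments do not have the protein-coding biotype in the annotation, and 62 members (2.59%) lay among them. The T cell receptor alpha and delta locus on chromosome 14 held 29 members, with a median signal of 67.9 and a highest of 366; of 26 motifs there 23 were on the plus strand. At the immunoglobulin heavy chain locus on chromosome 12, 15 members had 13 motifs, all on the minus strand. The kappa locus on chromosome 6 held 18 members, with 9 motifs on each strand. Consecutive motifs of these loci were tandem in 74.1% (61.1 to 83.9) of 54 pairs. Without these loci desert density was 7.67 peaks per Mb, median signal 66.3 and motif share 75.6%, and 57.7% (54.8 to 60.4) of pairs were tandem.

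Noncoding genes also lie within deserts. Long noncoding RNA genes held 355 members (14.8%), against 12.8% of near intergenic peaks, and 123 (5.14%) were within 1 kb of the start of a gene without the protein-coding biotype, close to the 6.28% of near intergenic peaks. The strongest of these lay 0.136 kb from the start of Gm38563, in the desert before Myc, with a signal of 546. The next, of 530, lay 0.0140 kb from that of 4921539H07Rik, and one of 488 lay 0.0830 kb from that of 4930545L08Rik, in the desert between Stac and Arpp21. When genes of every biotype counted, 123 peaks remained over 200 kb from any start, at 4.96 per Mb.

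Of the 4 gene lists used, that of developmental transcription factors had the most members per Mb of flanking run. Of 89 genes of that list on these chromosomes 60 (67.4%) flanked a run, against 7.03% of all protein-coding genes. The gene lists were chosen with earlier results of these data known, so shares given for them describe the chosen genes only. A member was present in the runs of 56 of the 60, with a median of 5 members a gene and 11.7 per Mb, against 73.4%, a median of 2 and 7.79 per Mb over all 1461 flanking genes. The median length of flanking run sequence was 546 kb for the list and 384 kb over all.

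Neural adhesion and synapse genes flanked long and sparse runs. Of these 69 genes 61 (88.4%) flanked a run, with a median of 1759 kb of run a gene and 4.65 members per Mb. A member was present in the runs of 54 of the 61, and the median of 5 members a gene was that of the transcription factors. Secreted signals and receptors flanked in 33 of 61 cases, 27 of them with a member, with a median of 3 members a gene and 7.57 per Mb. Of 52 genes of the intestinal epithelium 10 flanked a run, each with a member, with a median of 5.5 members a gene and 7.98 per Mb. Their median flanking run sequence was long, 1535 kb against 384 kb over all flanking genes, and their density was close to the 7.79 over all. Genes of 2 lists count in both, and a run counts for the gene on each side.

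Sox9, the factor of crypt progenitors and Paneth cells, had the most members in the first list: 19 in 1.17 Mb of unmasked run sequence, 16.2 per Mb. In the desert before it, between Kcnj2 and Sox9, 10 members had signals of 275, 259, 252, 352, 379, 270, 55.6, 68.4, 229 and 315 on the way from Kcnj2 to Sox9. All 10 had a motif, and 8 of the signals were 229 or more, against a median of 65.4 over all members. Beyond Sox9, towards Slc39a11, 9 members had signals of 38.3, 33.2, 33.5, 50.7, 607, 21.2, 345, 317 and 141. The first 4 lay 229.2 to 332.4 kb from the start of Sox9 and were weak; the strong ones stood together at 383.1 to 400.1 kb. There the peak of 607 had its motif on the minus strand, facing Sox9, and those of 345, 317 and 141 on the plus strand, facing away.

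Myc, a growth regulator and Wnt target of the crypt, had 17 members on its sides. In the desert before it 6 members had signals of 546, 214, 125, 70.8, 103 and 129, the first 827.7 kb from the start of Myc with its motif facing the gene. That peak lay nearer to A1bg, with a start 234.7 kb away. In the desert beyond Myc, up to Gsdmc, 11 members had signals of 67.5, 25.5, 106, 48.6, 69.6, 146, 56.8, 58.7, 194, 17.9 and 249. All 5 motifs called there were on the minus strand, facing Myc. Ranks of the first of the 17 were 698 and 650 in replicates 1 and 2.

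**Figure D5:**
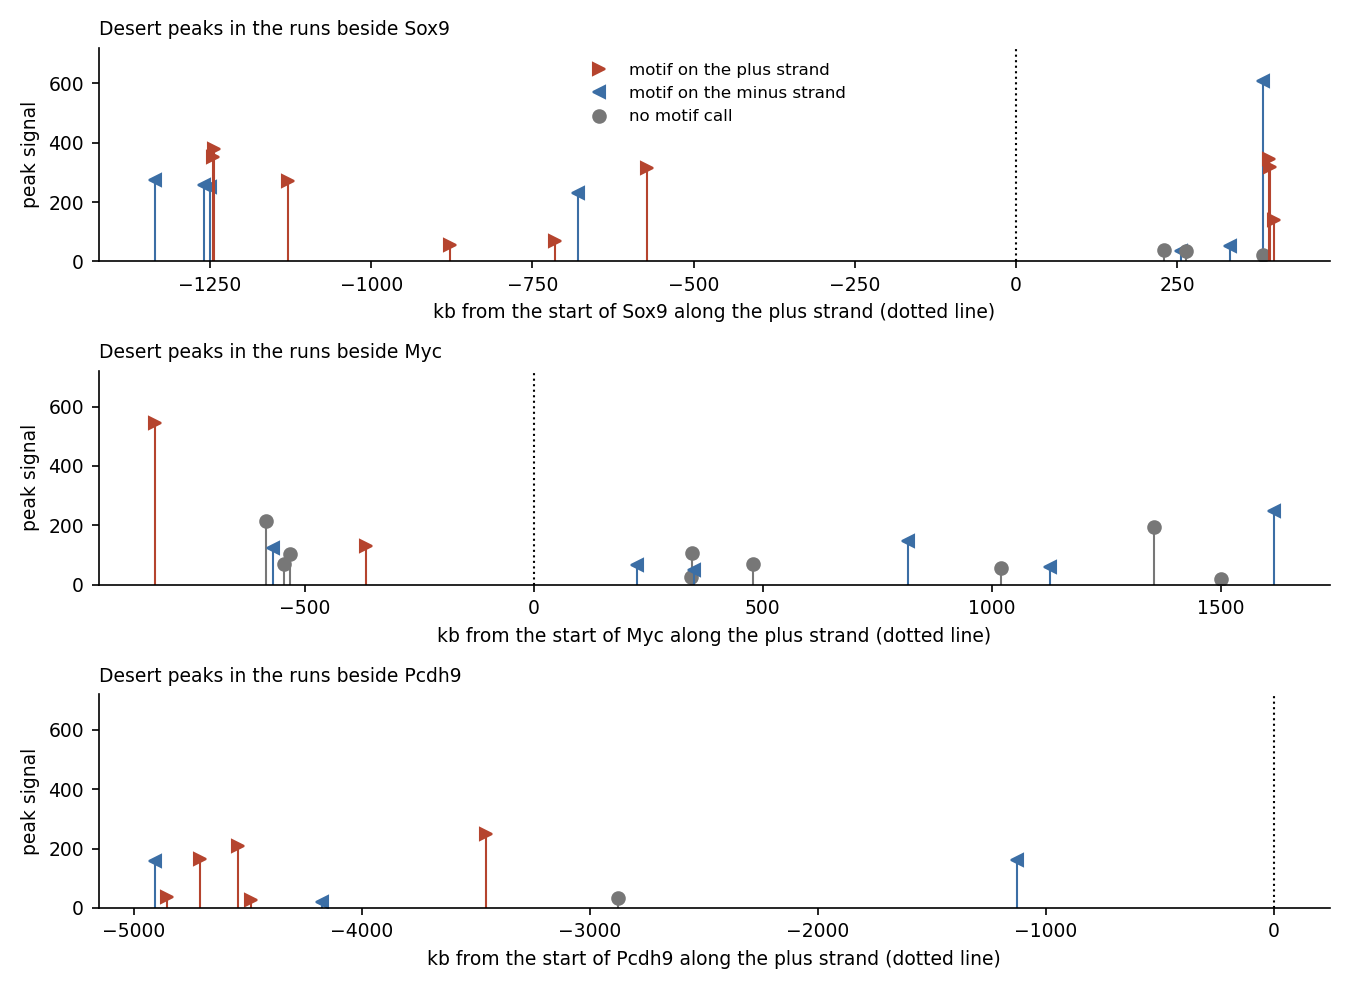
Signal of each desert peak (vertical axis, authors' value) by distance from the start of Sox9, Myc or Pcdh9 along the plus strand in kb; triangles point in the direction of the motif and grey circles have no motif call. The signal of 607 stands at 383.1 kb from Sox9 and that of 546 at 827.7 kb before Myc.

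Other list genes with many members were Zeb2, a factor of the enteric nervous system, with 15 and a median signal of 66.5, and Maf with 13 at 30.0 per Mb and a median of 36.2. Epha4, an ephrin receptor gene, had 15 with a median of 32.7. Fgf9, a growth signal of gut mesenchyme, had 14 at 29.6 per Mb, and Robo2, a receptor of axon guidance, 13 with a median of 113. Among the cadherins, Cdh8 had 21 members in 3.51 unmasked Mb and Cdh4 15 in 0.456, while the adhesion gene Flrt2 had 17 in 3.45 unmasked Mb. Barhl2, Fgf10 and Astn2 flanked runs of 0.115, 0.143 and 0.0359 unmasked Mb with no member.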

How the data were processed

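Deposited mm10 peak lists cover each replicate, both libraries pooled, and the optimal and conservative sets of an irreproducible discovery rate (IDR) filter. The IDR lists, per the deposited descriptions, derive from the replicate lists, the pooled list and a further file of unstated role. For aligner, peak caller, IDR threshold and control: not given in the sources used here. Depth is unknown. The signal of a peak is the value the authors deposited, with unstated normalization; it was compared within lists. The summit is the deposited offset from the peak start.

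Bases were classed with GENCODE M21 and the GRCm38.p6 sequence, whose NCBI repeat masking may differ from other mm10 masking. The matrix was trained on the 5000 strongest non-desert peaks of even-numbered chromosomes (6 rounds, pseudocount 1), with a threshold that 5% of flanking windows reached. No test was run, because there is 1 group; shares have Wilson and densities exact Poisson intervals (95%). Named members are the strongest, weakest, farthest, nearest to the limit, most isolated and closest, those strongest without a motif or at a noncoding start, and the runs that are longest, fullest or empty; of each gene list, the 3 genes with most members and the first with none. Pcdh9 is described for its run. 1 of the 10 strongest members and its run are not reported here. The members and lists were chosen with earlier results of these data known. Scripts ran in Python 3.11.15 with numpy 2.4.6 and scipy 1.17.1, and motif and class steps were tested on simulated data.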

Additional observations from a re-analysis of the deposited data

How the results depend on the processing

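The direction of the main contrasts held under each alternative run: the ratio of desert to near intergenic density was under 1 in 10 of 10 and that of median signal in 10 of 10. With the limit at over 100 kb or over 500 kb, there were 4705 or 563 peaks in 1118 or 187 runs, at 10.7 or 4.33 per Mb (ratio 0.264 or 0.149), with median signal 73.0 at over 100 kb and motif share 78.5% at over 500 kb. With only the 5′ end of each gene as a start, density was 8.37 (ratio 0.234). With genes of every biotype, 123 peaks in 70 runs were left at 4.96 per Mb (ratio 0.198), the ratio of medians was 0.556 and the motif share 87.8%. With summits at masked bases kept, density was 5.69 (ratio 0.198), median signal 57.6 (ratio 0.591) and motif share 77.9%. In the conservative list density was 7.42 and median signal 70.8. Above the median signal, 1105 peaks remained at 3.60 per Mb (ratio 0.167), with median signal 175 (ratio 0.640), motif share 87.6% and convergent share 15.2%.

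The motif share was 40.6% at the 1% threshold and 25.2% for the plain word; under both, the near intergenic share was higher (46.0% and 28.5%). Support in both replicates was 98.7% for summits within 100 bases and 97.4% with most of the peak covered. Desert matches with a summit were 62.4% at a score of 17 or more (near intergenic 84.6%) and 66.3% with the pooled list (82.7%). Leaving out a replicate gave (without replicate 1 first, then without replicate 2) 2385 and 2361 peaks, 605 and 612 runs, densities of 7.76 and 7.68 (ratios 0.221 and 0.219), ratios of medians of 0.500 and 0.503, motif shares of 76.9% and 76.3%, convergent shares of 19.8% and 20.0%, and 48.4% and 47.2% of matches with a summit. The alternatives without antigen receptor loci, and those for matches and ratios of density, were chosen after seeing the data. No paired analysis was possible because the study has 1 group. The lists give no read counts, so depth limits could not be set, and whether weak desert peaks come from few cells was not tested.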
